A study of Mus musculus with 8 samples.

Results

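Interferon-inducible GTPases were measured in the colonic mucosa of mice as the transcripts of 5 guanylate-binding proteins (Gbp2, Gbp3, Gbp4, Gbp6 and Gbp7) and 4 immunity-related GTPases (Igtp, Irgm1, Irgm2 and Iigp1). The rows of the deposited signal table whose symbol in the platform annotation is one of these 9 genes were taken, which gave 9 rows of 18097. They stand for 8 of the genes, since Iigp1 has 2 rows and no row carries the symbol Gbp6. Only rows with a detection p below 0.01 on 4 or more of the 8 arrays entered the test, and 5 of the 9 rows passed this filter, those of Gbp3, Gbp7, Igtp, Irgm1 and Irgm2. The platform was the Illumina MouseRef-8 v2.0 BeadChip, which measures transcripts by hybridisation to probes on beads. RNA came from 4 male mice aged 157 days on a mixed 129Sv/B6/D2 background. The 2 control mice had the genotype Dnmt1LO/LO, and the 2 transgenic mice carried TgVillacIGY on top of the same Dnmt1LO/LO genotype, so that both groups share the Dnmt1 alleles. Each mouse was hybridised to 2 arrays, whose mean is its value. The labels do not say in which cells the transgene is active, and colonic mucosa holds epithelium together with immune and stromal cells.

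Guanylate-binding proteins and immunity-related GTPases are large GTP-hydrolysing proteins that cells make in quantity when interferon gamma binds its receptor. Signalling from the receptor acts on promoters through GAS elements (gamma-activated sequences), and Irf1 binds ISRE elements (interferon-stimulated response elements). Effector members of both families gather on the vacuoles that hold intracellular bacteria and parasites. Igtp, Irgm1 and Irgm2 are regulatory members that reside on the cell's own membranes and keep the effectors away from them. In the gut these genes respond to interferon from lymphocytes and are studied for their part in defence against enteric pathogens.

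The arrays carried a mean signal of 866 to 1080 units for the control mice, 998 and 1019 for transgenic mouse 2 but 698 and 753 for transgenic mouse 1, before normalization. On an array, 6646 to 7053 rows were detected. Dnmt1 itself, the gene of the alleles that both groups carry, averaged 790 and 665 units per control mouse and 214 and 203 per transgenic mouse in raw signal. Its difference was a log2 change of -2.20 ± 0.28 (SE, n = 2 mice per genotype; limma adjusted p = 0.129). Markers of colonic epithelium were detected for 9 of the 10 on the array, including Cdh1 and Vil1, with Slc26a3 below detection. Transgenic mouse 1 stood apart for the epithelial keratin Krt20, at 11.08 against 13.61, 13.21 and 13.51 in the other mice on the normalized log2 scale. It was also the lowest mouse for Vil1, Krt8 and Krt19. For Cdh1, Krt18 and Cdx1 it was the highest, and for Cldn7 and Cdx2 it lay in between. The GTPase results are therefore also given without each mouse in turn.

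The promoters of 6 member genes are in the RefSeq table (build GRCm38.p6), and the stretches printed here show the interferon response elements next to the annotated starts. Each stretch runs 5′ to 3′ on the gene's strand from 110 bases before the start to 10 bases after, with motif matches on either strand in capitals. The ISRE was searched as GAAA, any 2 bases and GAAA again, and the GAS as TTC, any 3 bases and GAA. The stretches lie at chr3:142530226-142530345, chr3:142559934-142560053 and chr3:142620553-142620672 on the plus strand, at chr11:48871411-48871530 on the minus strand, and at chr11:58199446-58199565 and chr11:58214867-58214986 on the plus strand.
Gbp7: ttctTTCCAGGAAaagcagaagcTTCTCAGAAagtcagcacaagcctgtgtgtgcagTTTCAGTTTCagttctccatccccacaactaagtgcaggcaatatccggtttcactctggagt
Gbp3: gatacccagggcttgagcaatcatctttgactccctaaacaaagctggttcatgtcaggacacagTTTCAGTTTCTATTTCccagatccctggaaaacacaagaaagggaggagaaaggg
Gbp2: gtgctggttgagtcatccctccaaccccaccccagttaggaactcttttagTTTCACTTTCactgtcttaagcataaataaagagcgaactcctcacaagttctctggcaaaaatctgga
Irgm1: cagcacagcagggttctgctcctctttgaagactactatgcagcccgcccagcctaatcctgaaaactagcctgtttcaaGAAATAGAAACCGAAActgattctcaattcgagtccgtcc
Igtp: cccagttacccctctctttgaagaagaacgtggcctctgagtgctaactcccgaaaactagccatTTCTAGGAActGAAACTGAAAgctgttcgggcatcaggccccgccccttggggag
Irgm2: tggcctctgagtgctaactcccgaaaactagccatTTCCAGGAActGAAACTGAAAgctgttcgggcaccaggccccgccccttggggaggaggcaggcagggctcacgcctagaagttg

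In the full 300 bases of each promoter (250 before and 50 after the start), 6 of the 7 member promoters hold an ISRE match and 3 of the 7 a GAS match. Over all 32851 promoters of that table, 3.44% hold an ISRE match, 8.3% a GAS match and 0.454% both. Of 6 promoters searched outside the members, 4 hold an ISRE match, those of Gbp2b, Ddx58, Oas1a and Stat2. Those of Ifi47 and Tap1 hold none. The member promoter with neither motif is that of the second start listed for Gbp3. Gbp3 and Irgm1 each have a pair of ISRE matches that overlap, at -45 to -36 and -39 to -30 in Gbp3 and at -30 to -21 and -24 to -15 in Irgm1. Gbp2 has 1 ISRE match at -59 to -50. Gbp7 has 1 ISRE match at -53 to -44 and 2 GAS matches farther from the start, at -106 to -98 and -87 to -79. Igtp and Irgm2, neighbouring genes on chromosome 11, share an arrangement in which a GAS match is followed after 2 bases by an ISRE match. When these promoters are lined up on the GAS match, with a shift of 30 bases between them, 184 of 270 bases are the same (68.15%), with an unbroken run of 61. The genes Gbp7, Gbp3 and Gbp2 lie in one cluster on chromosome 3, with only Gbp2b between the last pair. A match describes the letters of the promoter and does not show binding, which was not measured.

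**Figure D1:**
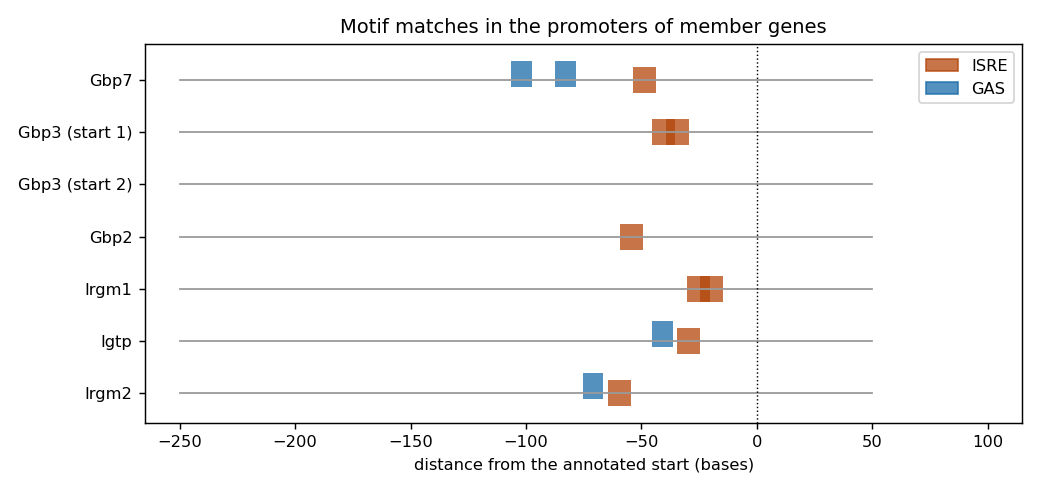
Positions of ISRE (orange) and GAS (blue) matches in 300-base promoters of the member genes, by distance in bases from the annotated start (dotted line); darker orange marks overlapping matches. All matches in these promoters lie between -106 and -15.

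None of the 5 GTPase transcripts tested passed the test between the genotypes, while 4 of them were over 2-fold apart between the control mice (3 of 5 in the authors' series matrix and 2 of 5 with the background inferred from all rows). Gbp3, Gbp7, Igtp and Irgm2 were each lowest in control mouse 2, and their genotypes overlapped. Irgm1 had the smallest difference between the control mice among those tested. A difference in transcript level in whole mucosa can come from fewer cells of a type or from less RNA per cell, and these cannot be told apart here.

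Among the guanylate-binding proteins, Gbp3, which acts with the other products of its cluster against intracellular pathogens in mice, had raw signals of 1163.4 and 956.4 on the arrays of control mouse 1 and of 329.6 and 267.0 on those of control mouse 2. The transgenic mice gave 435.4 and 435.6 for the first and 873.8 and 868.4 for the second. Both transgenic mice thus lay between the control mice. On the normalized log2 scale the mouse means were 9.89, 7.81, 8.85 and 9.43 in the same order, or 8.85 ± 1.48 in control and 9.14 ± 0.41 in transgenic mice (SD, n = 2). The log2 change was 0.29 ± 0.72 (SE; 95% interval -1.58 to 2.16; limma adjusted p = 0.919). The control mice were 4.25-fold apart, a log2 difference of 2.09 beside 0.58 between the transgenic mice, whereas the arrays of a mouse differed by at most 0.17 on the log2 scale.

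Gbp7, which in mouse macrophages helps assemble the phagocyte oxidase on vacuoles, repeated this order of mice with smaller gaps. Its raw signals were 215.3 and 187.2 in control mouse 1, 127.3 and 118.6 in control mouse 2, then 133.3 and 129.2 for the first transgenic mouse and 209.8 and 187.4 for the second. It was detected on 5 of the 8 arrays, both arrays of control mouse 1, neither of control mouse 2 and 3 of the 4 transgenic arrays. The mouse means on the normalized log2 scale were 7.01, 5.68, 6.25 and 6.70, in the same order of mice as for Gbp3. The genotypes overlapped, and the log2 change was 0.13 ± 0.48 (SE, n = 2 per genotype; 95% interval -1.12 to 1.39; limma adjusted p = 0.949). Since Gbp7 did not pass detection in control mouse 2, its fold between the control mice has no firm value and moved from 1.07 to 2.55 with the background and scaling used.

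Gbp2, a guanylate-binding protein that gathers on parasite and bacterial vacuoles, was not tested, because its detection value looks like a mean over several probes and passed the limit on 0 of 8 arrays. Its raw signals lay nonetheless above the highest undetected row with an unaveraged detection value on each array, which was 131 to 183.4 units. They were 481.4 and 411.3 in control mouse 1, 297.3 and 249.6 in control mouse 2, then 200.1 and 230.0 for the first transgenic mouse and 300.7 and 319.1 for the second. Control mouse 1 was highest, and the other mice lay close together, with normalized log2 means of 8.52, 7.64, 7.47 and 7.63. When every row was fitted without the detection filter, the log2 change of Gbp2 was -0.53 ± 0.34 (SE, n = 2 per genotype; limma adjusted p = 0.777). Gbp4, a member of the family's second cluster on chromosome 5, gave 62.3 to 82.0 units and was detected on 0 of 8 arrays. Gbp6 lies in that cluster too and has no value here.

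Of the regulatory immunity-related GTPases, Igtp, which in mouse cells resides on the endoplasmic reticulum and lipid droplets, had raw signals of 2409.6 and 2060.8 in control mouse 1 and 617.3 and 717.4 in control mouse 2. They were 1184.2 and 1353.3 for the first transgenic mouse and 2860.0 and 2815.1 for the second. Transgenic mouse 2 was highest and control mouse 2 lowest. The normalized log2 means of the mice were 11.02, 9.19, 10.63 and 11.25, so that control mouse 1 fell between the transgenic mice. Igtp had the largest estimate of the 5, a log2 change of 0.83 ± 0.64 (SE, n = 2 per genotype; 95% interval -0.84 to 2.50), which is a 1.78-fold higher mean in transgenic mice with a limma adjusted p of 0.739. The control mice were 3.54-fold apart and the transgenic mice 1.54-fold.

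Irgm2, which in mice resides on the Golgi and restrains caspase-11 responses, followed the order of Gbp3 and Gbp7. Its raw signals were 3679.3 and 2623.4 in control mouse 1, 1007.3 and 840.7 in control mouse 2, then 1346.2 and 1364.8 for the first transgenic mouse and 3327.1 and 2761.0 for the second. The transgenic mice lay between the control mice once more, with normalized log2 means of 11.52, 9.70, 10.73 and 11.35. The log2 change was 0.43 ± 0.64 (SE, n = 2 per genotype; 95% interval -1.24 to 2.09; limma adjusted p = 0.857). Its control mice were 3.51-fold apart and its transgenic mice 1.54-fold, values close to those of its neighbour Igtp.

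Irgm1, whose loss in mice disturbs autophagy and gut homeostasis, had raw signals of 5587.7 and 5140.3 in control mouse 1, 4419.1 and 3682.3 in control mouse 2, then 4158.4 and 4566.8 for the first transgenic mouse and 5768.4 and 6958.0 for the second. In raw signal the genotypes overlapped. On the normalized log2 scale the means were 12.30 and 11.86 in control and 12.49 and 12.44 in transgenic mice, and the genotypes did not overlap. They overlapped again when arrays were scaled by their medians. The log2 change was 0.38 ± 0.21 (SE, n = 2 per genotype; 95% interval -0.18 to 0.94; limma adjusted p = 0.678), and the control mice were 1.36-fold apart. Iigp1, an effector that gathers on parasite vacuoles in mouse cells, was detected on 0 of 8 arrays by either row, with 61.2 to 79.3 units in one and 84.8 to 116.5 in the other.

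**Figure D2:**
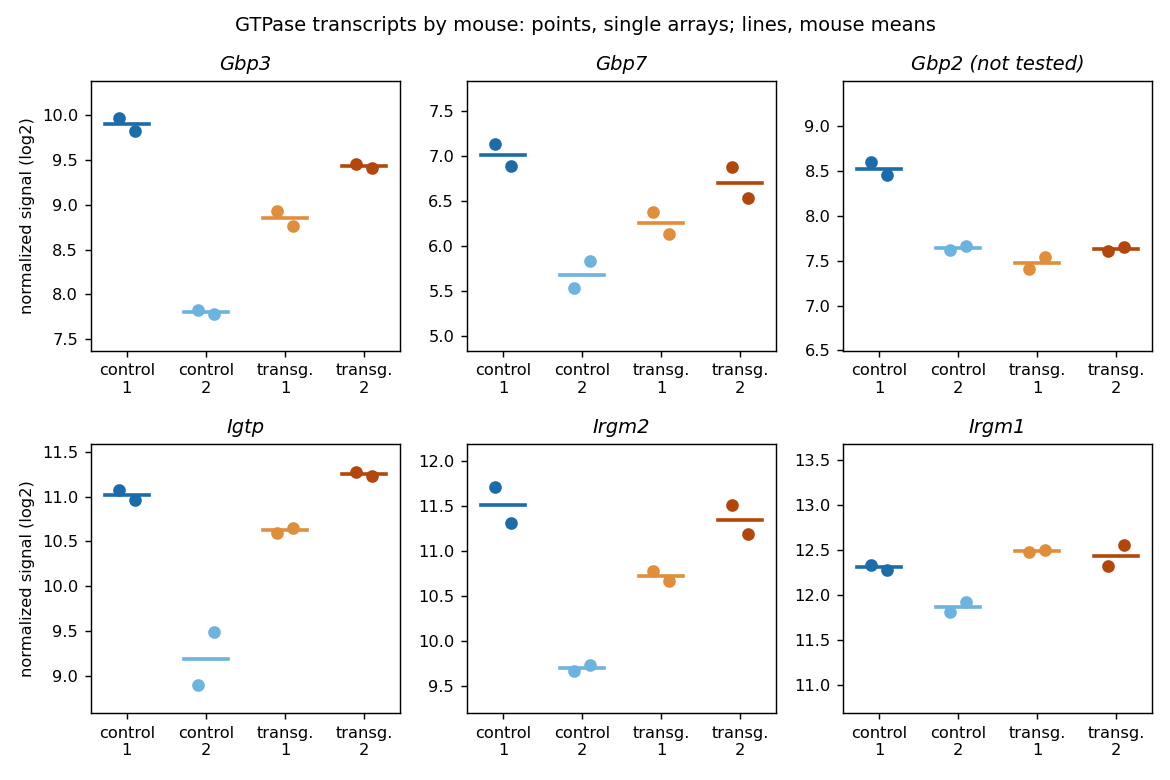
Normalized signal (log2) of the 5 GTPase transcripts tested and of Gbp2 in each mouse; points are single arrays, lines the mean of the 2 arrays of a mouse, and every panel spans the same number of log2 units. Control mouse 2 is the lowest mouse in all 5 panels of tested genes, and only in Irgm1 and Gbp2 do the mouse means of the genotypes not overlap (both overlap with median scaling).

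Across the family, 0 of the 5 members tested were called at an adjusted p under 0.05, against 9 of 6982 rows in all (0.129%), and 0 of 5 reached an unadjusted p under 0.05, against 8.41% of all rows. The estimates were above 0 for 5 of 5, against 3387 of 6982 rows in all, with a median log2 change of 0.38 beside -0.01 over all rows tested. The 5 come from the same 4 mice, with control mouse 2 the lowest for each, so their signs are not independent. Both mice of 1 genotype lay beyond both mice of the other for 1 of the 5 members (Irgm1, which overlapped with median scaling), against 42.6% of all rows. The intervals of Gbp3, Gbp7 and Irgm2 each span both a fall and a rise of over 2-fold, so that a difference of that size was not detectable with 2 mice per genotype. The direction of 4 of the 5 estimates turned without control mouse 2. Without it, the log2 changes were -0.75 for Gbp3, -0.53 for Gbp7, -0.08 for Igtp, -0.48 for Irgm2 and 0.16 for Irgm1, and without control mouse 1 they were 1.33, 0.80, 1.74, 1.33 and 0.60. Without transgenic mouse 1, the mouse that stood apart for Krt20, the changes were 0.58, 0.36, 1.14, 0.74 and 0.35 in the same order. Without transgenic mouse 2 they were -0.0026, -0.09, 0.52, 0.12 and 0.40. In each of these fits 0 of 5 members were called by limma, and the group left with 1 mouse is assumed to vary like the other group. With control mouse 1 left out, the control group is control mouse 2 alone, the lowest mouse for all 5. The larger changes of that fit thus rest on 1 control mouse.

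**Figure D3:**
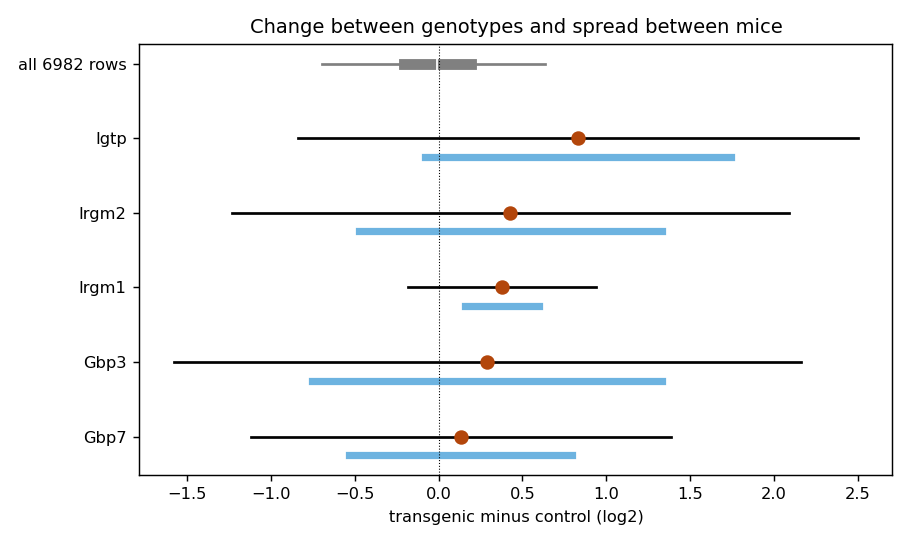
Transgenic minus control difference (log2) of each GTPase tested (point) with its 95% interval (black line); the blue bar, centred on the point, is as long as the larger of the differences between mice of the same genotype. The grey box and line at the top give the 25th to 75th and the 5th to 95th percentiles of the differences over all 6982 rows. All 5 intervals cross 0.

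The GTPases were then compared between mice of the same genotype. Control mouse 1 was over 2-fold above control mouse 2 for 4 of the 5 members tested, against 77 of 6982 rows (1.1%). This count depends on the background, and includes Gbp7, which was not detected in control mouse 2. With the background inferred from all rows it was 2 of 5 (Igtp and Irgm2) against 0.458% of rows, with Gbp3 at 1.99-fold, and in the series matrix it was 3 of 5 against 0.788%. Among rows detected on all 8 arrays it was 3 of 4 members against 0.803%. The median log2 difference between these mice was 1.81 over the members and -0.00 over all rows. Transgenic mouse 2 was over 2-fold above transgenic mouse 1 for 0 of the 5 members, against 400 rows (5.73%), although it was higher for 4 of 5, with a median log2 difference of 0.58 beside -0.04 over all rows. No test was made of either difference, since each sets 1 mouse against 1 mouse. The arrays of a mouse differed by at most 0.59 on the log2 scale for any member tested, the largest gap being that of Igtp in control mouse 2. Over all rows the median SD was 0.118 between the single arrays of a mouse. It was 0.103 between the means of the control mice and 0.215 between those of the transgenic mice. The control mice were thus the more alike pair over the whole array. A mean of 2 arrays varies less than a single array, so the first value cannot be set directly against the others. In raw signal, with no normalization, control mouse 1 stood 3.55-fold above control mouse 2 for Gbp3, 3.35-fold for Igtp and 3.41-fold for Irgm2, and transgenic mouse 2 stood 2.00-fold, 2.24-fold and 2.25-fold above transgenic mouse 1, whose arrays were the dimmest.

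**Figure D4:**
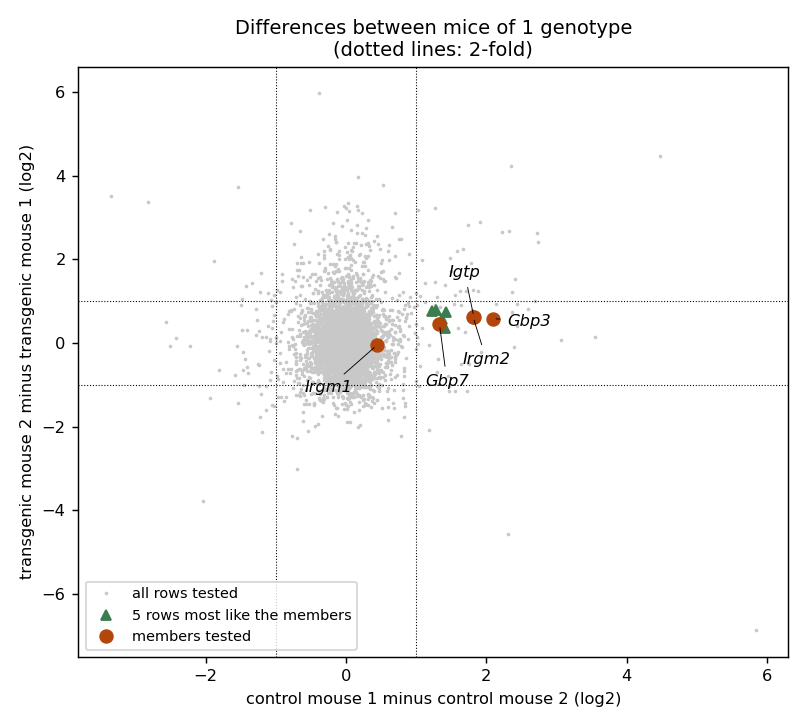
Difference between the control mice (horizontal, log2) against the difference between the transgenic mice (vertical, log2) for every row tested (grey), the GTPases tested (orange circles) and the 5 genes whose pattern over the mice is most like theirs (green triangles). Of the GTPases, 4 of 5 lie to the right of the 2-fold line and 0 of 5 above the upper one.

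The mean pattern of the 5 members, each centred on its own mean, was 0.54 in control mouse 1, -0.96 in control mouse 2, -0.02 in transgenic mouse 1 and 0.43 in transgenic mouse 2 on the log2 scale. By root mean square distance over the 4 mice, the nearest genes outside the family were Oas1a (0.0840), an enzyme that senses double-stranded RNA, the antigen peptide transporter Tap1 (0.139), Rtp4 (0.141), the interferon signalling factor Stat2 (0.142) and the viral RNA sensor Ddx58 (0.153), where the median over all rows was 0.631. The distances of the members themselves were 0.127 for Irgm2, 0.152 for Gbp7, 0.223 for Gbp3, 0.247 for Igtp and 0.414 for Irgm1. Each member is itself part of the mean pattern. The 5 genes outside the family were picked as the nearest, so their distances lie below the median by choice. Oas1a had normalized log2 means of 8.27, 6.91, 7.61 and 8.18 in the same order of mice, and its log2 change of 0.31 ± 0.50 (SE, n = 2 per genotype) had a limma adjusted p of 0.869. With 4 mice, likeness of pattern is a description, and the 5 genes share the arrays with the members.

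Other GTPases of these and related families were on the array for 14 genes, of which 5 were tested and 0 called, with 0 at an unadjusted p under 0.05. Their median log2 change was -0.06, and control mouse 1 was over 2-fold above control mouse 2 for 3 of them. Gbp2b, the neighbour of Gbp2 and Gbp3, had log2 means of 11.07 and 9.99 in control and 9.90 and 10.26 in transgenic mice (log2 change -0.45 ± 0.40; limma adjusted p = 0.776, n = 2 per genotype). Ifi47, another immunity-related GTPase, had 10.21 and 8.66 against 9.44 and 10.59 (0.58 ± 0.64; limma adjusted p = 0.814, n = 2 per genotype). The antiviral GTPase Mx2, named after its values were seen, differed most between the control mice, with 9.20 and 6.80 against 7.82 and 9.35 in transgenic mice. Irgq and Atl3, the remaining genes tested, differed by 0.04 and -0.01 between the control mice on the log2 scale.

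Genes of the interferon gamma ligand, receptor and signalling chain were tested for 13 of the 17 on the array, with 0 called and 0 at an unadjusted p under 0.05 by limma, and a median log2 change of 0.20. Ifng, the ligand, gave 80.4 to 107.8 units and was detected on 0 of 8 arrays by an averaged detection value. Its receptor chain Ifngr1, named for its role and with its values known, had log2 means of 11.03 and 11.16 in control mice and 10.15 and 11.21 in transgenic mice, so the control mice that differed for the GTPases were alike here. The smallest p-values belonged to Irf9, part of the factor that binds ISRE elements (log2 change 0.42 ± 0.26; limma adjusted p = 0.701, n = 2 per genotype), and Pias1, an inhibitor of interferon signalling (-0.22 ± 0.16; limma adjusted p = 0.725, n = 2 per genotype). Over 2-fold differences between the control mice were seen for 2 of the 13 genes, Stat2 and Usp18, a brake on interferon receptor signalling. Neither is particular to signalling by interferon gamma. The median difference of the 13 between the control mice was 0.13 on the log2 scale. Usp18, also named after its values were seen, had 11.05 and 8.69 in control and 10.53 and 11.28 in transgenic mice. Irf1, the transcription factor that drives many GTPase genes and likewise named with its values known, had 11.40, 11.13, 11.05 and 11.70. Its log2 range over the mice was narrower than that of Gbp3, Igtp or Irgm2, but not than that of Irgm1.

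Type I and III interferon ligands and receptors were tested for 3 of the 7 on the array, with 0 called and 0 at an unadjusted p under 0.05 by limma. Ifnb1, Ifna4 and Ifnar1 were below detection on all arrays. The smallest p-values were those of the receptor chains Il10rb (log2 change -0.39 ± 0.28; limma adjusted p = 0.728, n = 2 per genotype) and Ifnlr1 (-0.35 ± 0.40; limma adjusted p = 0.814, n = 2 per genotype).

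Other targets of interferon gamma include the MHC class II pathway and were tested for 17 of the 25 on the array. Of these, 0 were called, 6 were higher and 0 lower in transgenic mice at an unadjusted p under 0.05 by limma, beside 4.43% higher and 3.98% lower over all rows, and the median log2 change was 0.67. The smallest p-values belonged to Cd74, the chaperone of MHC class II, with log2 means of 9.83 and 9.87 in control and 12.15 and 11.56 in transgenic mice (2.00 ± 0.25; limma adjusted p = 0.118, n = 2 per genotype), and to the class II chain H2-Ab1 (1.75 ± 0.49; limma adjusted p = 0.454, n = 2 per genotype). Cd74 differed by -0.04 between the control mice, where Gbp3 differed by 2.09. Control mouse 1 was over 2-fold above control mouse 2 for 6 of the 17, namely Nlrc5, Cxcl9, Bst2, Tap1, Parp14 and Lgals9, and control mouse 2 was over 2-fold above control mouse 1 for 1, H2-Aa.

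The machinery that conjugates ATG8 proteins, which directs these GTPases to vacuoles, was tested for 11 of 13 genes on the array, with 0 called. At an unadjusted p under 0.05 by limma, 2 were lower and 0 higher in transgenic mice, beside 3.98% and 4.43% of all rows. They were Map1lc3a (log2 change -0.73 ± 0.24; adjusted p = 0.524, n = 2 per genotype) and Atg7 (-0.48 ± 0.17; adjusted p = 0.559, n = 2 per genotype). The inflammasome genes that act downstream of guanylate-binding proteins in mouse macrophages were tested for 6 of 9, with 0 called and 1 lower at an unadjusted p under 0.05 by limma. All 6 estimates lay below 0, against 3595 of 6982 rows in all. Transgenic mouse 1 was the lowest mouse for each, while transgenic mouse 2 lay above both control mice for Aim2 and Casp8. Il18, a cytokine released on inflammasome activation, had the smallest p (-1.33 ± 0.44; limma adjusted p = 0.524, n = 2 per genotype), followed by the adaptor Pycard (-0.43 ± 0.18; limma adjusted p = 0.620, n = 2 per genotype). Neither list had a gene with control mouse 1 over 2-fold above control mouse 2.

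Markers of the cells that make or respond to interferon were set beside these values. T and NK cell markers were tested for 7 of 15 on the array, and their mean log2 signal was 7.97, 8.02, 7.58 and 7.73 in control mice 1 and 2 and transgenic mice 1 and 2. At an unadjusted p under 0.05 by limma, 4 were lower and 1 higher in transgenic mice, beside 3.98% and 4.43% of all rows. Cd3d (log2 change -0.99 ± 0.24; limma adjusted p = 0.379, n = 2 per genotype) and Ccl5 (-0.76 ± 0.21; limma adjusted p = 0.448, n = 2 per genotype) had the smallest p-values, and Cd4, Cd8a, Gzmb and Ncr1 were below detection on all arrays. Of the 7 estimates 5 lay below 0, against 3595 of 6982 rows in all. The 2 above 0 were Prf1 (1.18 ± 0.43, limma adjusted p = 0.566, n = 2 per genotype) and Itgae (0.61 ± 0.31, limma adjusted p = 0.655, n = 2 per genotype). Between the control mice (mouse 1 minus mouse 2), the median difference of these 7 markers was 0.0059 on the log2 scale. Of the markers that failed by an averaged detection value, Cd8b1 differed by -0.93, Trat1 by -0.02 and Cd247 by -0.06. Klrd1, detected on 2 of 8 arrays and not tested, differed by -0.50. Macrophage and dendritic cell markers were tested for 3 of 12, with means of 8.29, 8.40, 8.58 and 8.85 over the mice in the order above. Mrc1 (1.57 ± 0.19; limma adjusted p = 0.118, n = 2 per genotype) and Ctss (-0.60 ± 0.36; limma adjusted p = 0.685, n = 2 per genotype) had the smallest p-values, and C1qa, C1qb, C1qc, Itgam, Itgax and Lyz2 were below detection on all arrays. B and plasma cell markers were tested for 2 of 7, with means of 10.46, 10.31, 10.35 and 10.46. These means rest on Xbp1 (0.34 ± 0.23; limma adjusted p = 0.709, n = 2 per genotype) and Sdc1 (-0.29 ± 0.26; limma adjusted p = 0.775, n = 2 per genotype) alone. Jchain, Ms4a1, Mzb1 and Pax5 were below detection on all arrays, and Cd79b was so by an averaged detection value. Of the endothelial markers 1 of 8 was tested, Vwf (2.96 ± 0.32; limma adjusted p = 0.098, n = 2 per genotype), and of the fibroblast and smooth muscle markers 0 of 10. Epithelial markers had means of 12.91, 12.77, 12.44 and 12.96, with the smallest p-values for Krt20 (-1.12 ± 0.81; limma adjusted p = 0.728, n = 2 per genotype) and Krt18 (0.24 ± 0.18; limma adjusted p = 0.738, n = 2 per genotype). The part of cell makeup in the spread of the GTPases between mice was not tested.

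**Figure D5:**
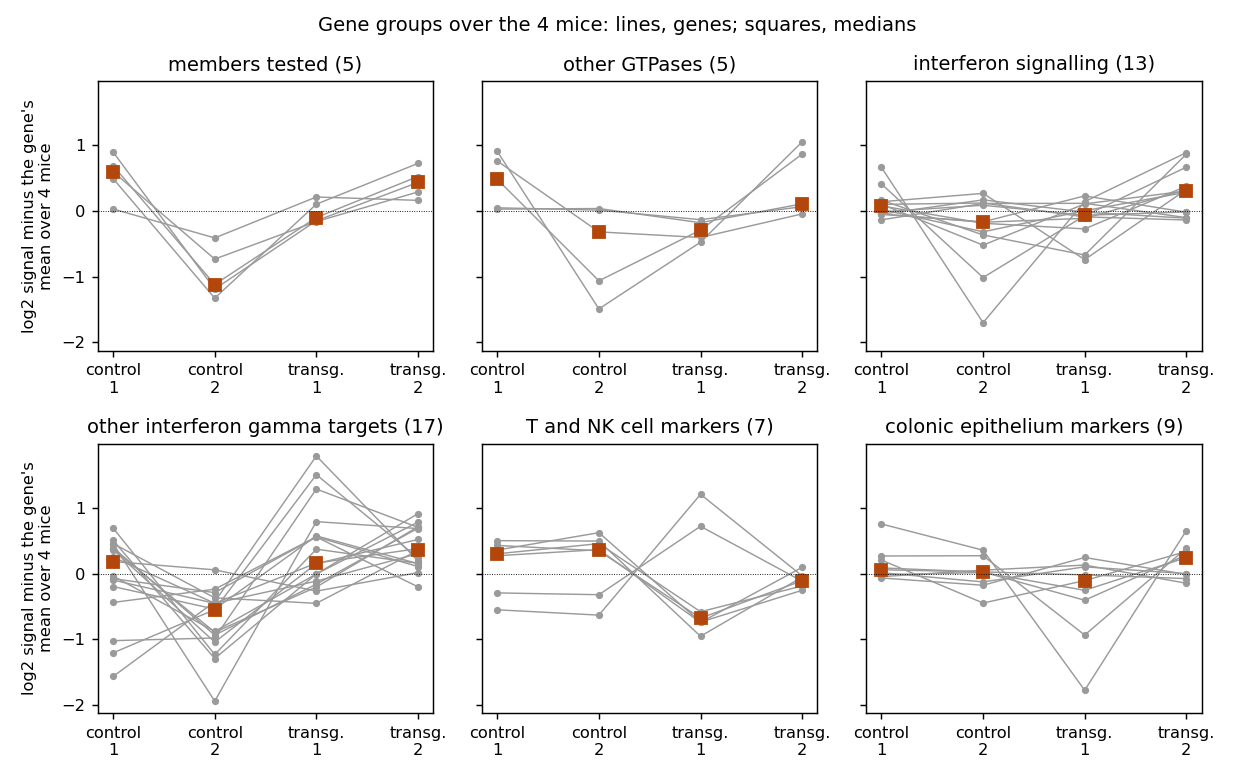
Normalized signal (log2) of each gene minus its mean over the 4 mice, for the GTPases tested and 5 other gene lists; grey lines are genes, squares the median of the list in each mouse, and numbers in brackets the genes tested. The GTPase lines fall together in control mouse 2, while the lines of the T and NK cell markers tested lie nearly level between the control mice. Cd8b1 and Klrd1, not tested and not drawn, were higher in control mouse 2 than in control mouse 1.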

How the data were processed

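RNA from the colonic mucosa of 4 mice, 2 per genotype, was hybridised to 8 arrays. Total RNA was isolated with Trizol and labelled with the Illumina TotalPrep kit, per the labels' protocols; BeadStudio and Partek are named in the submitters' processing notes, with settings not given in the sources used here. The deposited table holds linear intensity values, 1 per row and array, without normalization. The deposited detection values are a fraction that rises with signal (rank correlation 0.945 to 0.954 by array), so they were read as 1 minus the detection p. They are whole multiples of 1/798 in 13920 of 18097 rows (76.9%); the other 4177, Gbp2, Gbp7 and Irgm1 among them, appear to average several probes, though no label or header says so. The log2 values of the series matrix, which the authors deposited, are quantile normalized as their values show (column medians 6.84 to 6.85) and served as an alternative.

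Background was corrected by normexp with parameters inferred from the whole-step rows, an offset of 16, quantile normalization and log2 (limma 3.58.1, R 4.3.3, statmod 1.5.0). The 2 arrays of a mouse were averaged. lmFit and eBayes compared 2 with 2 mice over 6982 rows, two-sided, with Benjamini-Hochberg adjustment and a threshold of 0.05. The code was tested on simulated data. Symbols came from the platform annotation (16610 rows with 1 symbol, 1487 with none), and the brightest row stood for a gene in the lists. The members and the 14 lists, 6 of them marker lists, were chosen with earlier results of these data known. Named genes are the members, the called genes of each list or, with none called, the 2 with the smallest p, and the 5 genes nearest in pattern; any other gene named in the text was picked with its values known. The number of mice and arrays limits the precision. Alternatives were another background, scaling or filter, single arrays, mixed models and each mouse left out.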

Additional observations from a re-analysis of the deposited data

How the results depend on the processing

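With 2 mice per genotype, no alternative called a member: limma gave 0 of the members tested in all 13, with adjusted p from 0.296 to 1.00. The median log2 change of the members was 0.38, between 0.13 and 0.41 under the other settings and between -0.48 and 1.33 with 1 mouse left out. The change of Gbp3 turned to -0.0342 with the background inferred from all rows, to -0.75 without control mouse 2 and to -0.0026 without transgenic mouse 2. Gbp7 turned to -0.0264 on array 2 alone, to -0.53 without control mouse 2 and to -0.09 without transgenic mouse 2. Igtp turned to -0.0797 and Irgm2 to -0.48 without control mouse 2, and Irgm1 kept its sign in all 13. Leaving out 1 mouse gave -0.75 to 1.33 for Gbp3, -0.53 to 0.80 for Gbp7, -0.08 to 1.74 for Igtp, 0.16 to 0.60 for Irgm1 and -0.48 to 1.33 for Irgm2. The median difference between the control mice, 1.81, became 0.99 with the background from all rows, 1.70 in the series matrix, 1.91 with median scaling, 0.88 over 9 rows with no detection filter, 2.05 on array 1 alone and 1.47 on array 2 alone. That between the transgenic mice, 0.58, became 0.32 with the background from all rows, 0.75 with median scaling and 0.16 with no filter. The alternatives for the differences between mice were added after seeing the data. Control mouse 1 was over 2-fold above control mouse 2 for 4 members, for 2 with the background from all rows and for 3 or 4 under the other settings; transgenic mouse 2 was over 2-fold above transgenic mouse 1 for 0 members, and for 3 in raw signal. The filter's alternative adds the rows that failed the detection limit, those of Gbp2, Gbp4 and Iigp1. Its medians of 0.88 and 0.16 are the values of Gbp2, which failed by an averaged detection value. The cause of the other moves was not tested. Array numbers are shared by all mice but mark only technical repeats: with all 8 arrays, the array number as a replicate block and the mouse as a random effect, the median change was 0.38 and the limma adjusted p of the members was 0.514 to 0.942, while 137 rows were called in all against 9. Without the block 185 were called. Leaving out a mouse gave 850 calls over all rows without transgenic mouse 2, 53 without transgenic mouse 1 and 0 without either control mouse.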
